A study of Mus musculus with 7 samples.

Results

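Guanylate-binding proteins (GBPs) are large GTPases that cells make in quantity after interferon gamma. They gather on the vacuoles of intracellular microbes and on bacteria in the cytosol, and in mouse macrophages they promote the release of microbial ligands that set off inflammasomes. Macrophages and monocytes are the marrow-derived cells in which they are best known, but most nucleated cells can make them. The 9 members described here are Gbp2, Gbp2b, Gbp3, Gbp4, Gbp5, Gbp6, Gbp7, Gbp8 and Gbp9. They were taken by symbol from the 31053 genes of the deposited count matrices, and all 9 were present. The family was selected on its higher values in HRO than in WTO monocytes, which were already known, so that comparison is given as a description, with fitted differences and standard errors but no p-value for a member.

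Total mouse marrow from spine, hips, femur and tibia, after removal of red cells, was profiled by droplet 3′ single-cell RNA sequencing in 7 libraries that make up 4 pools, with 20 samples told apart by hashtag antibodies. The groups follow the sample names: HRO (6 samples), chronic (2 samples, HRO.5 and HRO.6, stated to be TET2-mutated), HRY (3), WTO (4) and WTY (3). HR.7 and HR.AE are 1 sample each. Genotype, age and treatment behind the prefixes are not stated in the labels, apart from the TET2 mutation, and are not interpreted; nor is it said what the HRO and WTO samples share. Nothing in the labels ties each hashtag to its own animal, so p-values here cover only how far hashtag samples scatter, and that scatter may be technical.

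Pools and groups were only partly crossed. HRO.7, HRO.8 and HRO.9 were run with WTO.4 and HR.AE (WBM_2), HRO.11 and HRO.12 with WTO.5 and WTO.6 (WBM_4), HRO.10 with HR.7, HRY.6, HRY.5, WTY.5 and WTY.4 (WBM_3), and both chronic samples with WTO.3, HRY.4 and WTY.3 (WBM_1). After filtering, 43024 cells remained, with 2679390 to 56015664 UMIs per sample. HRO.7 and HRO.8 stood apart from the other HRO samples: their monocytes differed from each other by a chi-square of 1.36 per degree of freedom (p = 4.77e-119 over 10049 genes), the lowest of any pair within a group, against 76.6 for HRO.7 and HRO.9. Other pairs that shared a pool were also low: 1.58 for WTY.4 and WTY.5, 1.67 for WTO.5 and WTO.6, and 1.90 for HRY.5 and HRY.6. This chi-square takes UMIs as independent and leaves out variation between cells, so it cannot show whether HRO.7 and HRO.8 are distinct samples. It also grows with the UMIs of a pair, so pairs of unlike depth are not on the same scale. HRO.7 and HRO.8 were counted as 2 samples, and the fitted differences are also given without both. Xist exceeded Ddx3y in the monocytes of 5 of 6 HRO samples and of 1 of 4 WTO samples (WTO.4). Both transcripts were found together at 37.2 to 63.2 CPM (counts-per-million, the UMIs of a gene scaled to a fixed total) in WTO.3, HRY.4 and HRO.6 of WBM_1, while the lower of the pair was at most 12.1 in the other samples. The part of any of these in the results was not tested.

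The family lies in 2 clusters of genes (GRCm38 coordinates, GENCODE vM21). On chromosome 3, on the plus strand, Gbp5 (ENSMUSG00000105504, chr3:142493978-142522344), Gbp7 (ENSMUSG00000040253, chr3:142530342-142550149), Gbp3 (ENSMUSG00000028268, chr3:142560026-142573209), Gbp2b (ENSMUSG00000040264, chr3:142594847-142619179) and Gbp2 (ENSMUSG00000028270, chr3:142620602-142638008) follow each other within 144 kb. On chromosome 5, on the minus strand, Gbp8 (ENSMUSG00000034438, chr5:105014150-105139540), Gbp9 (ENSMUSG00000029298, chr5:105077630-105139539), Gbp4 (ENSMUSG00000079363, chr5:105115767-105139586) and Gbp6 (ENSMUSG00000104713, chr5:105270702-105293698) span 280 kb. The chromosome 5 gene models of Gbp8, Gbp9 and Gbp4 overlap on 1 strand. In the last 400 bases of the transcripts, where a 3′ kit reads, 0 of 303 windows of 98 bases were shared with another GBP gene for 8 of the members. For Gbp6, 259 of 303 windows (85.5%) were shared with Gbp10, so Gbp6 counts are uncertain.

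Interferon gamma acts on its target genes through the palindromic GAS element and through the ISRE element, which IRF1 and related factors bind. The 250 bases before the RefSeq starts (GRCm38.p6) were searched on both strands for TTCNNNGAA, a core form of GAS, and for a core form of ISRE, GAAA repeated after 2 further bases. RefSeq sequences were at hand for 5 of the 9 members, Gbp2, Gbp2b, Gbp3, Gbp5 and Gbp7. They are shown because these are the chromosome 3 members whose levels are described below, and because each holds a match of an element through which interferon gamma acts. All are on the plus strand of chromosome 3, at chr3:142620413-142620662 (Gbp2), chr3:142594597-142594846 (Gbp2b), chr3:142496684-142496933 (Gbp5), chr3:142530086-142530335 (Gbp7) and chr3:142559794-142560043 (Gbp3, the first of its 2 starts). Capitals mark every match of either motif.
Gbp2: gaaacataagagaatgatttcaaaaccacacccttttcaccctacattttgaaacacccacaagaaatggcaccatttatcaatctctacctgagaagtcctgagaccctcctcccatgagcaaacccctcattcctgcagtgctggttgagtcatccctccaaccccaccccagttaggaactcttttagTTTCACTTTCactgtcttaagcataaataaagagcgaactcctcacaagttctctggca
Gbp2b: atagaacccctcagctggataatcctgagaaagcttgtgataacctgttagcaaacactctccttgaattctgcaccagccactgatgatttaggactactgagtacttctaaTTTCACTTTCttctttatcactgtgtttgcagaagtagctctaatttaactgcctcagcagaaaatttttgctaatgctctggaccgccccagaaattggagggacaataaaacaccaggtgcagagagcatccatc
Gbp5: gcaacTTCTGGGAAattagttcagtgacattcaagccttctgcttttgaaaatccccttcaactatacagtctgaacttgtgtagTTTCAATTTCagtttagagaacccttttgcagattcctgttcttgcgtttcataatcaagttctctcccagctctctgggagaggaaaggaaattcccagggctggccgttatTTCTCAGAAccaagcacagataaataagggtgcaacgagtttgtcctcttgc
Gbp7: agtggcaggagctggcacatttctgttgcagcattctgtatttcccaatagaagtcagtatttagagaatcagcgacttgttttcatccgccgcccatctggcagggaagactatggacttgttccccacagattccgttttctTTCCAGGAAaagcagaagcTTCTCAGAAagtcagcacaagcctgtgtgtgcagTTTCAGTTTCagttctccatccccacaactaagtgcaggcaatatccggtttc
Gbp3: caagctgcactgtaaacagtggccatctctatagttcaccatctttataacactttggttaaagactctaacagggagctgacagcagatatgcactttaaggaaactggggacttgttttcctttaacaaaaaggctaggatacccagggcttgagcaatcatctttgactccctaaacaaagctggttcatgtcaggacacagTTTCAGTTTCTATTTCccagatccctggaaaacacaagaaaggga

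At least 1 ISRE match stood in the window of every one of the 5 members, at position -59 from the start in Gbp2, -137 in Gbp2b, -165 in Gbp5, -53 in Gbp7, and at -45 and -39, overlapping each other, before the first Gbp3 start. The window of the second Gbp3 start (chr3:142560106-142560355) held neither motif. GAS matches were found in Gbp5 (-245 and -52) and in Gbp7 (-106 and -87). Of 32851 RefSeq promoter windows of this length, 7.02% held the GAS form, 2.98% the ISRE form and 0.332% both. These matches describe letters in a window and are not evidence of binding.

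Levels below are in CPM, the UMIs of a gene as a share of all UMIs in the cells of a class, summed per hashtag sample. A 3′ kit counts transcript ends, so the values are not divided by gene length. A class name means only that the cells showed that class's marker genes, and the GBP genes were left out of the clustering. Monocytes, called from markers such as Csf1r, F13a1, Ccr2 and Ly6c2, numbered 8051 cells, 61 (WTO.5) to 1325 (HRO.9) per sample. Their summed monocyte markers lay at 8658 to 12354 CPM in HRO and 8444 to 10017 in WTO samples.

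In monocytes the 9 members together were highest in HRO.7 and HRO.8, and this pair set the scale of the whole family. The summed level was 2036, 2057, 127, 316, 272 and 66.0 CPM in HRO.7 to HRO.12, against 48.7, 127, 54.8 and 58.9 in WTO.3 to WTO.6. The means were 812 ± 960 in HRO (SD, n = 6) and 72.4 ± 36.8 in WTO (n = 4), a ratio of 11.2. The 4 samples HRO.7, HRO.8, HRO.10 and HRO.11 lay above every WTO sample, while HRO.9 and WTO.4, which shared a pool, were alike and HRO.12 fell among the WTO values, so the groups overlap.

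**Figure D1:**
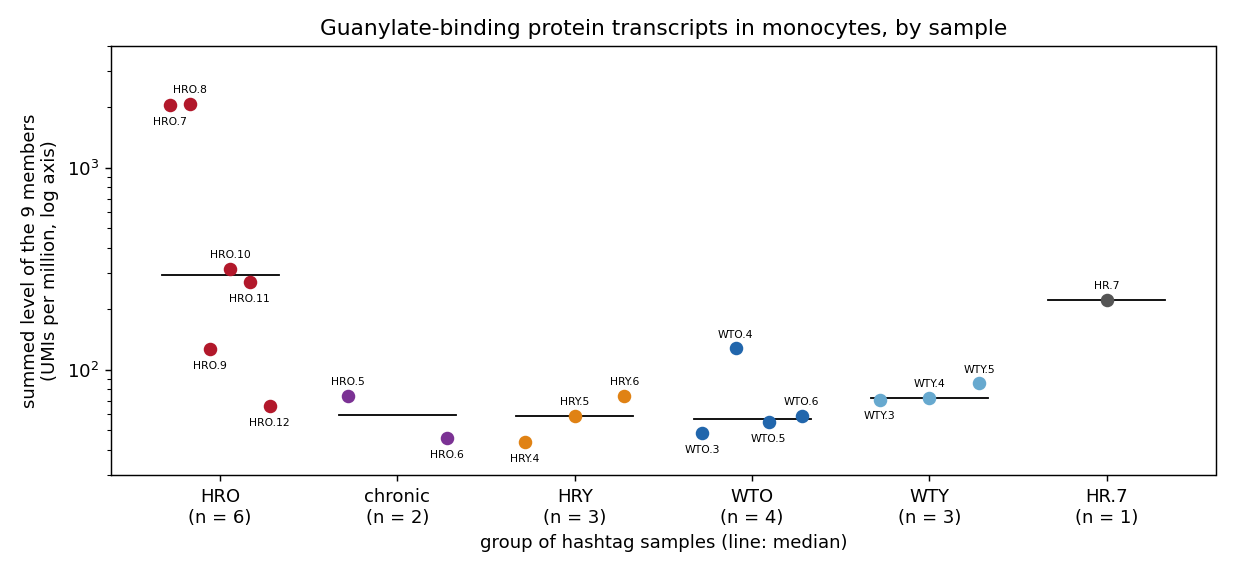
Summed level of the 9 members in monocytes (CPM, log axis); each point is a hashtag sample, by group, and lines are group medians. HRO.7 and HRO.8 lie at 2036 and 2057, HRO.10 and HRO.11 at 316 and 272, and every WTO, WTY, HRY and chronic sample at 127 or below.

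Gbp2, Gbp2b and Gbp5 are the mouse members that carry a lipid anchor signal at their end. Gbp2, which loads onto the vacuole of Toxoplasma in mouse cells, stood at 660.2, 682, 24.0, 76.9, 84.9 and 11.8 CPM in HRO.7 to HRO.12, against 4.29, 22.01, 14.7 and 9.05 in WTO.3 to WTO.6. The fitted log2 difference, HRO over WTO with pool as a term, was 3.86 ± 1.14 (SE). All HRO samples but HRO.12 exceeded the highest WTO sample, HRO.9 by a narrow margin.

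Gbp2b, listed in older work as mouse Gbp1, was at 276 and 285 CPM in HRO.7 and HRO.8, at 7.30, 22.8, 27.0 and 0 in HRO.9 to HRO.12, and at 4.29, 5.85, 0 and 0 in WTO.3 to WTO.6 (fitted log2 difference 5.04 ± 1.48). Gbp5, which in mouse macrophages promotes assembly of the NLRP3 inflammasome, was at 248 and 235 in HRO.7 and HRO.8, at 9.33, 33.2, 23.9 and 4.51 in HRO.9 to HRO.12, and at 2.86, 8.25, 4.21 and 0 in WTO.3 to WTO.6 (4.18 ± 1.20). For both genes HRO.12 was the only HRO sample within the range of the WTO samples. Gbp2b was not found in HRO.12, WTO.5 or WTO.6, whose monocytes held 1773099, 474855 and 662656 UMIs.

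Gbp3 and Gbp7 were the most abundant members in WTO monocytes and differed less between the groups than the 3 genes above. Gbp7, which in mouse macrophages takes part in bringing the NADPH oxidase to phagosomes, stood at 298, 288, 51.3, 95.4, 62.9 and 22 CPM in HRO.7 to HRO.12 and at 18.6, 37.1, 21.1 and 27.2 in WTO.3 to WTO.6 (log2 difference 1.93 ± 0.60). Gbp3 stood at 177, 189, 26.2, 61.8, 44.0 and 24.3 in the same HRO samples and at 12.9, 36.8, 10.5 and 19.6 in the WTO samples (1.76 ± 0.57). HRO.12 lay within the WTO range for both genes, and HRO.9 for Gbp3.

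The chromosome 5 members were scarce outside HRO.7 and HRO.8. Gbp4 was at 181 and 184 CPM in HRO.7 and HRO.8, at 1.69 to 8.80 in the other 4 HRO samples and at 0 to 4.13 in WTO samples (log2 difference 4.84 ± 1.59). Gbp8 was at 76.6 and 79.4 in the high pair, at 0.564 to 3.77 in the other HRO samples, and at 2.75 in WTO.4 with 0 in the other WTO samples (4.39 ± 1.58). Gbp9 was at 64.2 and 58.6 in that pair, at 1.13 to 12.1 in the other HRO samples and at 1.51 to 9.97 in WTO samples (1.89 ± 0.89). Gbp6 was at 54.9 and 57.1 in that pair, at 0.968, 3.66, 6.29 and 0 in HRO.9 to HRO.12, and at 0.344 in WTO.4 with 0 in the other WTO samples. It gave 610 UMIs in HRO monocytes (of 29703580) and 1 UMI in WTO monocytes (of 4744089), a ratio of 97.4 with a 95% interval of 17.4 to 3854 that covers counting error only. The ratio was 33.9 without HRO.7 and 9.31 (interval 1.57 to 377) without HRO.7 and HRO.8. For each of the 4 genes at least 1 HRO sample lay within the WTO range.

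**Figure D2:**
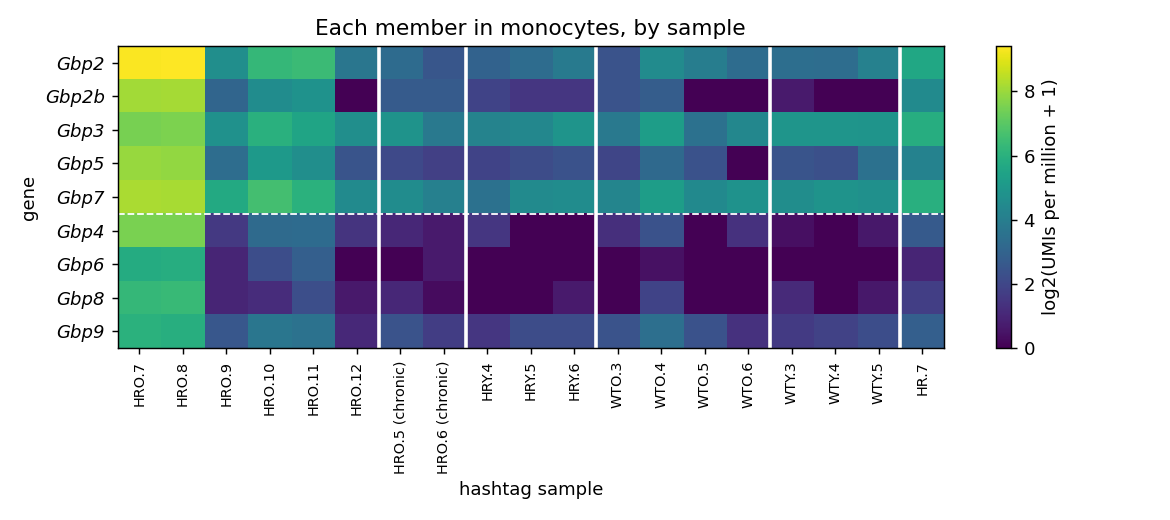
Level of each member (rows; chromosome 3 members above the dashed line, chromosome 5 members under it) in the monocytes of each hashtag sample (columns), as log2(CPM + 1). All 9 members are highest in HRO.7 and HRO.8, and Gbp3 and Gbp7 are the highest rows in every WTY, HRY and chronic sample.

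Across the 9 members the fitted differences had a median of 4.18 on the log2 scale, against a median of 0.01 over all 9899 genes tested. With Gbp6, which rests on 1 WTO UMI, left out, the median of the other 8 was 4.02. At a Benjamini-Hochberg adjusted p under 0.05 from the quasi-likelihood test of edgeR, 806 of the 9899 genes passed (8.14%), 465 of them higher in HRO (4.7%), and 3 of the 9 members did (Gbp2, Gbp2b and Gbp5, all higher in HRO); nothing is read from that count, since the family was chosen with this comparison known. Without HRO.7 and HRO.8 the differences were 1.29 for Gbp2, 1.65 for Gbp2b, 1.24 for Gbp5, 0.55 for Gbp3, 0.87 for Gbp7, 0.50 for Gbp4 and -0.17 for Gbp9, a median of 0.87, and 0 of these members passed; Gbp6 and Gbp8 were then too scarce to be tested.

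Within pools the direction was the same and the size was not. In WBM_2 the summed level averaged 1406 CPM over 3 HRO samples against 127 in WTO.4 (median log2 difference of the members 3.17), and in WBM_4 it averaged 169 over 2 HRO samples against 56.8 over 2 WTO samples (1.43). All 9 members had a positive mean difference in both pools, but HRO.7 and HRO.8 carried it in WBM_2 and HRO.11 in WBM_4. HRO.9 did not exceed WTO.4 in the sum and was lower for Gbp3, Gbp4, Gbp8 and Gbp9. HRO.12 alone had 66.0 against the mean of 56.8. At a coarser clustering (resolution 1) the cluster that holds the monocytes of HRO.7 and HRO.8 stayed unnamed and left the class, and the median of the members was then 0.87.

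The high pair also differed in the make-up of the family. Gbp3 and Gbp7 gave 23.2% and 23.3% of the member UMIs in HRO.7 and HRO.8 monocytes, against 39.3% to 70.1% in the other HRO samples and 57.7% to 79.5% in WTO samples. Gbp2, Gbp2b and Gbp5 gave 58.2% to 58.4% in HRO.7 and HRO.8, 24.8% to 49.9% in the other HRO samples and 15.4% to 34.6% in WTO samples. The 2 samples of the pair were thus close to each other and outside the range of every other sample in both shares.

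The monocytes of the samples lay in clusters that followed pools as well as groups. Cluster 12, led by the interferon gamma-induced chemokine Cxcl9 and the acute phase gene Saa3, took in 98.9% of the monocytes of HRO.7 and 96.3% of those of HRO.8, at 2045 and 2076 member CPM. Cluster 4 held 64.0% to 77.4% of the monocytes of HRO.9 to HRO.12, and also 39.3% of those of WTO.5 and 23.1% of WTO.6. Cluster 5 held 67.1% of those of WTO.4, 39.3% of WTO.5 and 53.8% of WTO.6. It also held 63.8% to 71.0% of those of HRY.5, HRY.6, WTY.4, WTY.5 and HR.7 of pool WBM_3. Cluster 7 held 67.4% of those of WTO.3 and 55.3% to 62.3% of those of the other samples of its pool, WBM_1. Cluster 22 held 18.4% to 26.7% of those of HRO.9 to HRO.12 and 18.0% to 25.5% of those of WTO.4 to WTO.6. In HRY.5, HRY.6, WTY.4 and WTY.5 its share was 20.2% to 25%. In cluster 4 the summed level was 150 in HRO.9, 358 in HRO.10, 252 in HRO.11 and 60.1 in HRO.12, against 55.2 in WTO.5. In cluster 5 the summed level was 171 in HRO.9, against 164 in WTO.4, 77.2 in WTO.5 and 75.0 in WTO.6. The HRO.9 and WTO.5 values there rest on 30 and 24 cells, with 33 and 11 member UMIs. In cluster 22 the summed level was 71.3, 205, 223 and 71.1 in HRO.9 to HRO.12, against 71.1 in WTO.4. HRO.10 and HRO.11 thus lay above WTO.5 in cluster 4 and above WTO.4 in cluster 22, whereas HRO.12 was close to the same WTO samples. HRO.9 was close to WTO.4 in clusters 5 and 22 and above WTO.5 in cluster 4.

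Depth differs between samples, so each monocyte was thinned to 2000 UMIs and shallower cells (1 to 127 per sample) were left out. A UMI of at least 1 member was then found in 92.3%, 93.2%, 21.9%, 43.0%, 36.5% and 14.0% of the monocytes of HRO.7 to HRO.12, against 10%, 21.4%, 8.33% and 7.89% in WTO.3 to WTO.6. UMIs of 3 or more members in 1 cell were found in 52.3% and 52.6% of HRO.7 and HRO.8 monocytes, in at most 4.73% in the other HRO samples and in at most 0.773% in WTO samples. No class in these samples lacks the family, so no share can stand as a background of free RNA. Plasma cells, whose markers are far from those of monocytes, had a member UMI in 17.1% of thinned cells in HRO.9 and in 21.4% in WTO.4, near the shares in the monocytes of those samples. The means were 50.1% ± 34.6 in HRO (SD, n = 6) and 11.9% ± 6.39 in WTO (n = 4), and unthinned 75.0% and 33.7% at median depths of 7351 to 11096 and 2894 to 7276 UMIs per cell.

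**Figure D3:**
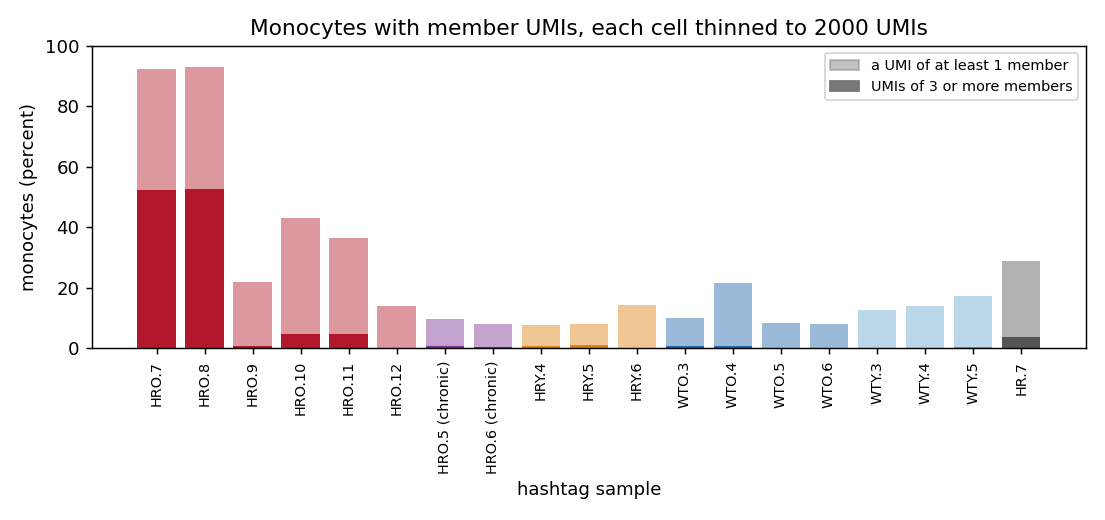
Share of monocytes (percent) with a UMI of at least 1 member (pale bars) and of 3 or more members (dark bars) in each hashtag sample, each cell thinned to 2000 UMIs. HRO.7 and HRO.8 reach 92.3% and 93.2%, HRO.10 and HRO.11 reach 43.0% and 36.5%, and WTO samples lie between 7.89% and 21.4%.

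HRY and WTY monocytes were compared next. The levels are of HRY and WTY samples alone, but the fit held all groups at once. HRO samples thus shared in its estimate of the spread, and HRO.10 in the term for pool WBM_3. The summed level was 43.7, 59.0 and 74.3 CPM in HRY.4 to HRY.6, against 71.0, 72.3 and 85.4 in WTY.3 to WTY.5 (59.0 ± 15.3 and 76.2 ± 7.95, SD, n = 3 each), and the ranges overlap. Gbp7 was at 10.5, 21.5 and 22.8 in HRY samples and at 23.5, 27.6 and 25.5 in WTY samples, with every WTY sample above every HRY sample. Gbp2 was at 6.82, 8.94 and 13.2 in HRY and at 9.68, 9.20 and 16.7 in WTY samples, which overlap. None of the 9 members passed edgeR's quasi-likelihood test, nor did any of 9899 genes (0%), with 456 genes at an unadjusted p under 0.05 and 0 by DESeq2. The 5 members with over 3 UMIs in both groups had log2 differences of -0.87 (Gbp5) to 0.04 (Gbp9). Their median was -0.39, against 0.01 over all genes. Their standard errors were 0.63 to 1.46 and their adjusted p in edgeR was 1 each, so sizeable differences could go undetected.

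No difference of the family between WTO and WTY monocytes was detected. WTO.3 and WTY.3 are the only samples of these groups that share a pool, and in the fit with pool as a term the others are linked through HRO and HRY samples. The summed levels were 72.4 ± 36.8 CPM in WTO (SD, n = 4) and 76.2 ± 7.95 in WTY (n = 3), with WTO.4 alone above the WTY range. Gbp2b was at 4.29, 5.85, 0 and 0 in WTO samples and at 0.587, 0 and 0 in WTY samples. Again 0 members and 0 of 9899 genes (0%) passed in edgeR, with 345 genes at an unadjusted p under 0.05 and 0 by DESeq2. The 6 members with over 3 UMIs in both groups ranged in log2 difference between -3.30 (Gbp8, which rests on 8 and 5 UMIs and whose group means, 0.688 CPM in WTO and 0.565 in WTY, differ the other way) and 0.26 (Gbp9), with a median of -1.02 and an adjusted p of 1 each. Standard errors of these 6 members were 0.80 to 3.97, so large differences could go undetected. Over all 9 the median was -0.49, and it turned to 0.87 without the pool term and to 0.07 without WTO.4.

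The chronic samples, TET2-mutated and in a pool with no other HRO sample, had WTO-like levels. In HRO.5 and HRO.6 the summed level was 74.1 and 45.6 CPM, against 48.7 in WTO.3 of the same pool and 48.7 to 127 over the 4 WTO samples, so the groups overlap. Gbp3 was at 27.3 and 13.2 and Gbp7 at 22.9 and 16.0 in chronic monocytes, against 12.9 and 18.6 in WTO.3. None of the members passed and none of 9899 genes did in edgeR (0%), with 307 at an unadjusted p under 0.05 and 2 genes by DESeq2. The 7 members over 3 UMIs in both groups had log2 differences of -0.83 (Gbp4) to 1.18 (Gbp2b), with a median of 0.22. Their standard errors were 0.95 to 3.69 and their adjusted p in edgeR was 1 each, so large differences could go undetected. Over all 9 members the median was 0.61, and -0.60 without the pool term. WTO.3 is the only WTO sample in the pool of the chronic samples, and the other WTO samples enter the fit through links between pools: the median was 0.64 without WTO.3 and -0.04 without WTO.4. Within WBM_1, the median difference of the members was 0.30 for 2 chronic samples against 1. The WTO samples also serve in the comparisons with HRO and WTY.

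HR.7, a single sample of pool WBM_3, had 221 member CPM in monocytes, above every WTO and WTY sample and between HRO.9 and HRO.11. Gbp7 was at 60.9, Gbp3 at 58.0, Gbp2 at 47.6 and Gbp2b at 21.9. A member UMI was found in 28.8% of its thinned monocytes.

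Across cell classes, the mean summed level over samples (at least 20 cells each) was highest in macrophages (611 ± 1019 CPM, SD, n = 12) and in T or NK cells (533 ± 242, n = 18). Stem and multipotent progenitors (335, n = 11), monocytes (311, n = 19), conventional dendritic cells (283, n = 4) and mature neutrophils (174, n = 18) followed. Then came nonclassical monocytes (155, n = 8), plasmacytoid dendritic cells (142, n = 10), granulocyte-monocyte progenitors (138, n = 18), basophils or mast cells (126, n = 7) and B lineage cells (121, n = 16). Immature neutrophils (83.5, n = 19), erythroid cells (60.1, n = 10) and plasma cells (49.97, n = 4) were lowest. Every pair of neighbours in this order overlapped in range over all samples. These ranges mix the groups and leave out that classes share samples, so they do not show whether neighbours differ. In WTO and WTY samples alone, macrophages (80.8 to 226) and T or NK cells (243 to 674) did not overlap. The classes hold different sets of samples, and HRO.7 and HRO.8 raise the means where they have 20 cells; the erythroid, nonclassical monocyte and plasma cell means lack both. By the median over samples, T or NK cells (496) lay above macrophages (196) and monocytes (74.1), and immature neutrophils (15.1) were lowest. The order by mean and the levels also depend on how cells were assigned. With a marker gate in place of clusters, mature neutrophils averaged 520 CPM (n = 19), above monocytes (233, n = 20). Mature neutrophils of HRO.7 were then at 3737, against 1346 by cluster. Conventional dendritic cells fell below B lineage cells, with HRO.7 at 128 against 543 by cluster. Macrophages stayed highest, but only HRO.7 and HRO.8 were counted there.

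T or NK cells were the class with a high level in every group. In WTO and WTY samples alone they had 403 ± 158 CPM (SD, n = 6), against 139 ± 68.2 in macrophages (n = 4), 74.0 ± 26.5 in monocytes (n = 7) and 12.6 ± 5.14 in immature neutrophils (n = 7). The ranges of T or NK cells (243 to 674) and of each of those 3 classes did not overlap in WTO and WTY samples.

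**Figure D4:**
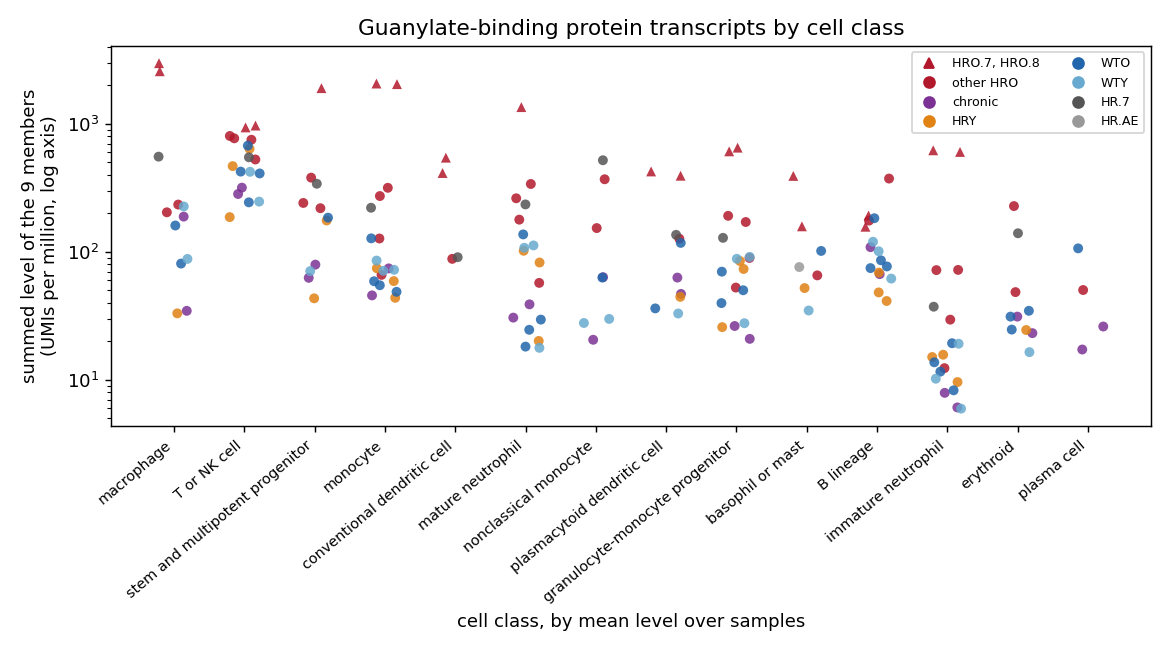
Summed level of the 9 members (CPM, log axis) in each class, ordered by mean; each point is a hashtag sample with at least 20 cells, triangles are HRO.7 and HRO.8. The triangles lie far above the other samples in macrophages, monocytes and immature neutrophils, and near the other HRO samples in T or NK cells and B lineage cells. The B lineage triangles are mostly cells of a cluster found in pool WBM_2 alone.

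HRO samples had higher mean levels than WTO samples in each of the 8 other classes with samples enough for a fit. Immature neutrophils averaged 234 ± 292 CPM in HRO (SD, n = 6) and 13.2 ± 4.64 in WTO (n = 4), with 602 and 619 in HRO.7 and HRO.8, 12.3 to 72.1 in the other HRO and 8.28 to 19.3 in WTO samples. Macrophages averaged 1492 ± 1479 in HRO (n = 4) and 121 ± 56.2 in WTO (n = 2), granulocyte-monocyte progenitors 294 ± 265 (n = 6) and 53.2 ± 15.3 (n = 3), and mature neutrophils 436 ± 519 (n = 5) and 52.2 ± 56.4 (n = 4). T or NK cells, at 791 ± 158 in HRO (n = 6) and 437 ± 178 in WTO (n = 4), differed by a ratio of 1.81, and 5 of 6 HRO samples exceeded all WTO samples.

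In B lineage cells the clusters differed: cluster 34, found in pool WBM_2 alone, held 96.2% of the B lineage cells of HRO.7 and 96.3% of those of HRO.8, and 0 of those of HRO.9, HRO.11 or any WTO sample. Cluster 34 met 7 B lineage markers, but its leading genes were Ccl22, Shisa8 and Fras1. Its median was 11362 UMIs per cell, against 838 to 2572 in the other B lineage clusters. The B lineage values of HRO.7 and HRO.8 are thus mostly those of cluster 34, also in the fit below. In cluster 37, led by genes of mature B cells such as Fcer2a and Cr2, the summed level was 163 in HRO.9 and 361 in HRO.11, against 214 in WTO.4 and 179 in WTO.6, which overlap. The fitted median log2 difference of the members tested, HRO over WTO, was 3.68 in immature neutrophils (9 members), 3.47 in erythroid cells (5), 3.43 in macrophages (8), 2.72 in granulocyte-monocyte progenitors (8), 1.97 in mature neutrophils (4), 1.67 in plasmacytoid dendritic cells (8), 1.34 in B lineage cells (7) and 0.69 in T or NK cells (6). The medians over all genes lay between 0.00 and 0.04 in these fits. Members that were tested are those with counts enough in the fit, so they are not the whole family in every class. Without HRO.7 and HRO.8 the medians ran from 0.20 to 3.44 over the 6 classes that still allowed a fit with members. These comparisons share samples with the monocyte comparison and are descriptions for the same reason.

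Each class had its own mixture of members. In WTO and WTY samples, Gbp3 and Gbp7 gave 33.3% and 32.2% of the 930 member UMIs of monocytes, and Gbp7 alone gave 60.5% of the 228 in immature neutrophils and 85% of the 100 in erythroid cells. Chromosome 5 members were a large share in lymphoid and plasmacytoid cells: Gbp4 gave 23.4% and Gbp8 12.6% of the 419 member UMIs of T or NK cells, and Gbp4 and Gbp8 gave 27.5% each of the 69 UMIs in plasmacytoid dendritic cells. In monocytes of the same samples, Gbp4 and Gbp8 gave 1.72% and 1.40%.

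Immature neutrophils of HRO.7 and HRO.8 held little Gbp3 beside their Gbp7 and Gbp2. Gbp3 was at 5.55 and 6.07 CPM in the immature neutrophils of HRO.7 and HRO.8, against 177 and 189 in their monocytes, while Gbp7 was at 234 and 235 against 298 and 288, and Gbp2 at 174 and 179 against 660.2 and 682. Gbp5 was low there too, at 16.9 and 17.7 against 248 and 235 in monocytes. Gbp3 thus gave 0.922% and 0.980% of the member UMIs in immature neutrophils and 8.68% and 9.19% in monocytes of the same samples. In granulocyte-monocyte progenitors of these samples Gbp3 was at 38.9 and 42.6. Gbp3 was also at 1.63 or less in the immature neutrophils of HRO.9 to HRO.12 and at 0.579 or less in those of WTO samples, where it was at 0 in WTO.3.

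**Figure D5:**
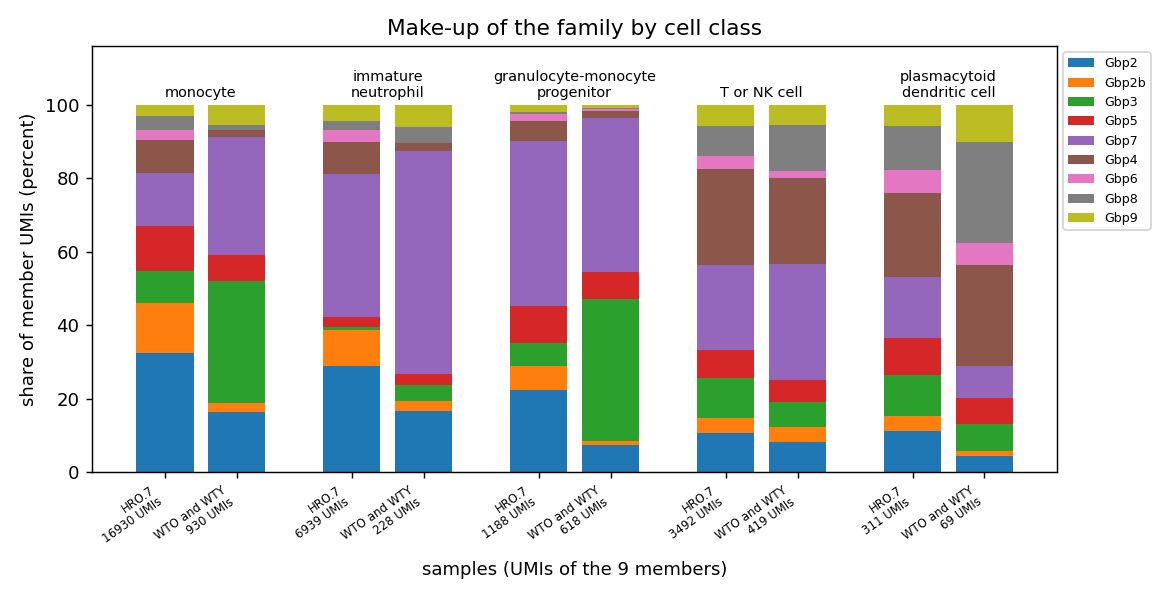
Share of each member (percent of the UMIs of the 9 members) in 5 classes, for HRO.7 (left bar of each pair) and for WTO and WTY samples summed (right bar), with the member UMIs under each bar. Gbp3 gives 0.922% in HRO.7 immature neutrophils and 8.68% in HRO.7 monocytes, and Gbp4 gives 26.2% and 23.4% in the 2 bars of T or NK cells.

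Interferon gamma itself is made by T and NK cells. In T or NK cells, Ifng stood at 309, 249, 39.9, 56.4, 93.0 and 315 CPM in HRO.7 to HRO.12, against 13.5, 18.3, 49.7 and 92.0 in WTO.3 to WTO.6. HRO.12 had the highest Ifng level and the lowest monocyte GBP level of the HRO samples, and 1 or 9 Ifng UMIs stand behind the lowest and the highest WTO value. T or NK cells of the samples were of different kinds: cluster 14, whose leading genes include Gzmk, Cd8a and Ifng, held 91.1% and 93.1% of those of HRO.7 and HRO.8, 31.6% to 57.5% of those of the other HRO samples and 30.7% of those of WTO.4. Within that cluster Ifng was at 328, 262, 107, 83.4, 110 and 387 in HRO.7 to HRO.12. It was at 22.6 in WTO.4, the 1 WTO sample with at least 20 cells there. The summed GBP level in cluster 14 was 682 to 956 over 6 HRO samples, against 738 in WTO.4. In cluster 36, whose leading genes include Foxp3, the GBP level was 447 to 1886 over 5 HRO samples, against 305 and 919 in WTO.6 and WTO.4. Ifng in cluster 36 was at 4.58 to 25.2 in HRO samples, against 25.4 in WTO.6 and 21.6 in WTO.4. In cluster 25 it was at 40.2 to 73.0 over 3 HRO samples, against 13.9 in WTO.3 and 12.8 in WTO.4. Ifng was at 0 in the monocytes of every WTO sample and at 0 to 1.13 in those of HRO samples.

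Other genes of the pathway in monocytes are given as counts over lists, beside the 4.7% of all genes that passed as higher in HRO. The lists were chosen with earlier results known, so the counts are descriptions and nothing is read from them. Of the 9 genes of interferon gamma and the cytokines that induce it, 3 were tested. Of these 1 passed as higher in HRO than in WTO, Il18rap, a subunit of the interleukin 18 receptor (log2 difference 2.06 ± 0.30). Of 6 receptor and signalling genes 0 passed, with a median of 0.34: the factor Irf1 differed by 1.40 ± 0.48. Irf1 was at 249 and 262 CPM in HRO.7 and HRO.8, at 51.8 to 90.5 in the other HRO and at 27.2 to 46.4 in WTO samples. Of 5 inhibitors of the pathway 1 rose, Socs3 (3.43 ± 0.43), at 28.7 to 82.3 in HRO and 2.86 to 9.05 in WTO samples. Socs3 was thus higher in all 6 HRO samples than in any WTO sample, and Socs1, the closest inhibitor of this receptor, was at 61.1 and 73.0 in HRO.7 and HRO.8 and at 0.564 to 17.6 in the other HRO samples, against 1.43 to 6.32 in WTO samples.

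The immunity-related GTPases, which act at the same vacuoles, had 7 of 7 members positive, 0 past the threshold and a median log2 difference of 2.18. Iigp1, an effector GTPase, was at 683 and 676 CPM in HRO.7 and HRO.8, at 0.564 to 53.2 in the other HRO samples and at 0 to 4.13 in WTO samples (6.72 ± 2.09). Igtp, a regulator of the effectors, was at 185 and 197 in HRO.7 and HRO.8, at 10.2 to 60.1 in the other HRO and at 8.42 to 26.1 in WTO samples (2.18 ± 0.74). Of 10 genes of the ATG8 conjugation system, which directs these GTPases to vacuoles, 1 rose (Map1lc3b, 0.30 ± 0.08) and the median was 0.24. Of 8 inflammasome genes 3 rose, Il1b (1.85 ± 0.53), Casp4 (1.31 ± 0.38), the sensor of bacterial lipopolysaccharide, and the adaptor Pycard (0.64 ± 0.11), and the median was 0.57. Of 13 type I interferon-stimulated genes 0 passed, with a median of 0.72. In HRY over WTY, WTO over WTY and chronic over WTO monocytes, 0 genes of each of these lists passed.

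Neutrophil transcripts, taken as a sign of free RNA, moved with the same comparison in monocytes: 3 of 7 rose in HRO over WTO, Lcn2 (2.04 ± 0.30), S100a8 (1.64 ± 0.24) and S100a9 (1.20 ± 0.27), with a median of 0.61 in the fit with pool as a term. As levels without that term, S100a8 was at 5013 ± 2022 CPM in HRO (SD, n = 6) and 5925 ± 7145 in WTO monocytes (n = 4). Summed markers of immature neutrophils were at 3451 to 8067 in HRO and 2066 to 13420 in WTO monocytes, and those of T cells at 4.47 to 28.8 and 3.02 to 31.5. Summed macrophage markers were at 278 and 253 in the monocytes of HRO.7 and HRO.8. They were at 64.2 to 100 in the other HRO samples and at 77.0 to 80.0 in WTO samples. Their part in the GBP levels was not tested.

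The genes whose profile over 19 monocyte samples was most like that of the summed family were ranked by the root-mean-square difference of mean-centred log2(CPM + 1), among 5850 genes at 20 CPM or more, for which the median was 1.64. Outside the family, those among the closest 10 were Fam26f (0.439), Igtp (0.505), Ifi47 (0.724), Ly6i (0.733), Irf1 (0.748), Pla2g16 (0.750), AW112010 (0.785), Fgl2 (0.816) and Nlrc5 (0.820). Among the members that reached that level, Gbp7 (0.446) and Gbp2 (0.465) were closest to the sum they belong to, then Gbp5 (0.603), Gbp3 (0.660), Gbp4 (0.812) and Gbp2b (1.23). The same samples HRO.7 and HRO.8 are extreme in many genes, so a small difference here is a description of these 19 samples.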

How the data were processed

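Marrow cells were measured by droplet 3′ single-cell RNA sequencing with hashtag antibodies. The authors deposited UMI counts per gene, hashtag and cell barcode as matrices for 7 libraries. The build is mm10, and the tools named are Seurat, Cell Ranger and bcl2fastq, per the submitters' processing notes. Hashtags were resolved by the authors with HTODemux, per the series text. The 9 members, the gene lists and the tests were chosen with earlier results of these data known.

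From the deposited counts, barcodes were assigned with HTODemux (Seurat 5.3.0, positive quantile 0.99), separately in each library. Of 78720 barcodes, 57944 were singlets, of which 4540 had under 300 genes and 10368 had 10% or more mitochondrial UMIs. The libraries of WBM_3 shared 2078 barcodes, and the copy with fewer UMIs was removed, which left 43024 cells. Doublets were removed by hashtag alone. Scrublet called 3.04% to 8.53% of cells in 4 libraries and 0%, 0.0133% and 0.0160% in the other 3, where it did not work, and it was used only in an alternative.

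Cells were clustered with scanpy 1.11.5 and leidenalg 0.10.2 (2000 variable genes less the 7 GBP genes among them, 30 principal components, 20 neighbours). Resolution 2 was chosen after clusters were seen: at resolution 1 the cluster led by Cxcl9 and Saa3 was joined with C1q macrophages and stayed unnamed. A cluster took a class name when at least 3 markers of that class were in over 10% of its cells and over 2-fold higher than elsewhere. The 46 clusters gave 14 classes, and 3 clusters stayed unnamed.

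UMIs were summed per class and hashtag sample with at least 20 cells. Differences were tested with edgeR 4.0.16 (R 4.3.3; TMM, filterByExpr, quasi-likelihood test, terms for group and pool), and p-values were adjusted by the Benjamini-Hochberg method over all genes tested, at 0.05. The steps were tested on simulated data that held no pool effect and no pair of samples like HRO.7 and HRO.8. That test does not show how the fits behave on these samples. Depth was 25343305 to 95553827 UMIs per library. Intervals and floors (3 counts) cover counting error only. The text names all 9 members, up to 4 genes of each list by size of the HRO over WTO difference in monocytes, with Ifng as the ligand, and the 10 genes closest in profile, of which 1 is not reported here. Promoter sequences and starts are from RefSeq. Alternatives were DESeq2 1.42.0 and its size factors, no filter, no pool term, a minimum of 50 cells, a marker gate in place of clusters, another hashtag normalization, removal of the top 5% of Scrublet scores, left-out samples, single pools and a replicate block. Resolution 1, HRO.7 and HRO.8 summed as 1 sample, and other classes without both were added after seeing the data. Pairing by sample number was checked from deviations around group means over 5827 genes: same-numbered WTO and WTY samples correlated at 0.59, 0.30 and 0.17, a hint of pairing that comes from the data and not the labels (number 3 also shares a pool), while HRY and WTY samples correlated at -0.75 and 0.61 and are not taken as paired.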

Additional observations from a re-analysis of the deposited data

Results flagged for a closer look

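The lowest and highest samples of 32 groups of 4 to 10 samples were tested for a gap to the others, which chance alone flags in about 5% of groups, and 8 were flagged. All levels are in CPM. The summed members in HRO.7 stood apart from the other HRO samples in mature neutrophils (1350.0, the next 338) and in stem and multipotent progenitors (1890.0, the next 379). HRO.8 had too few cells to be counted there, but with 10 mature neutrophils at 781 and 16 progenitors at 1857 it lay with HRO.7. HRO.11 stood apart in B lineage cells (373.0, the next 192). WTO.4 stood apart from the other WTO samples in B lineage cells (183.0, the next 85.8), mature neutrophils (137.0, the next 29.5) and monocytes (127.0, the next 58.9), and in monocytes also for Gbp6 (0.344, the others 0) and Gbp8 (2.75, the others 0). The Gbp6 value is 1 UMI in 2908059, against 474855 to 698519 monocyte UMIs in the other WTO samples, so it does not show that WTO.4 stands apart.

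HR.7, a single sample outside the group comparisons, lay above every WTO and WTY sample with at least 20 cells in 9 classes. Its summed level was 553.0 in macrophages (highest WTO or WTY value 226), 518.0 in nonclassical monocytes (62.9), 340.0 in stem and multipotent progenitors (185), 234.0 in mature neutrophils (137), 221.0 in monocytes (127), 139.0 in erythroid cells (34.6), 136.0 in plasmacytoid dendritic cells (117), 128.0 in granulocyte-monocyte progenitors (91.2) and 37.2 in immature neutrophils (19.3). Erythroid cells of WTY.4, WTY.5 and WTO.4, left out for having 7, 11 and 5 cells, were at 182, 131 and 131. Cluster 15, which is erythroid, drew 97.6% of its cells from HR.7, so the erythroid cells compared differ in kind. Being 1 sample, HR.7 was not tested.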

How the results depend on the processing

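In HRO over WTO monocytes, 806 genes and 3 members passed, and the median log2 difference of the members was 4.18. Without the low-count filter 1417 genes and 9 members passed, and without the pool term 163 genes and 0 members. By DESeq2 6 members passed, with hashtag counts normalised within each cell 1, at resolution 1 1, without HRO.7 and HRO.8 0, and with both summed as 1 sample 0. The median was 0.87 at resolution 1, 0.87 without HRO.7 and HRO.8 and 1.43 within WBM_4. Gbp9 turned to -0.040 at resolution 1 and to -0.17 without HRO.7 and HRO.8, against 1.89. Leaving out 1 sample at a time gave 159 (without WTO.4) to 1524 genes (without HRO.9), with 395 without WTO.3 and 397 without HRO.10, 0 to 9 members, and a median of 2.92 to 4.75. The cause of these changes was not tested.

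In the other comparisons 0 genes passed. Without the filter 55 passed in HRY over WTY, 69 (with 2 members) in WTO over WTY and 32 in chronic over WTO. At resolution 1, 5 passed in WTO over WTY, where the member median turned to 0.95, against -0.49, and the chronic median turned to -0.85, against 0.61. DESeq2 called 2 genes in chronic over WTO. Leaving out samples gave 0 to 2 genes in HRY over WTY and in chronic over WTO. The share of WTO monocytes with a member UMI was 33.7% unthinned, against 11.9%. Of 181 alternative values of single members, 122 kept direction and side of the threshold.

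With the replicate block in place of pool, 0 genes and 0 members passed in HRY over WTY (member median -0.52) and in WTO over WTY (-0.03), so it changed no call.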
